A study of Homo sapiens with 8 samples.

Results

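The 9 mature miRNAs described here, hsa-miR-124-3p, hsa-miR-124-5p, hsa-miR-9-5p, hsa-miR-9-3p, hsa-miR-128-3p, hsa-miR-129-5p, hsa-miR-138-5p, hsa-miR-153-3p and hsa-miR-218-5p, are best known from brain. They were looked up by name in small RNA counts of a kidney cancer line, and all 9 were listed among 3112 miRNAs, of which 1482 were known and 1630 carried the authors' number for a predicted miRNA. They were chosen by their levels in 1 library of these same counts, circSOD2-sh replicate 2. What that library shows for them is therefore a description, and no test is read from it.

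The series holds 8 small RNA libraries of 786O, a widely used cell line from a human clear cell carcinoma of the kidney, 4 with circSOD2-sh and 4 with negative control (NC). circSOD2 is a circular RNA made from the SOD2 gene, and the comparison looked for miRNAs that change when it is reduced. Per the labels, circSOD2-sh plasmid or control plasmid was transfected with Lipofectamine and RNA was taken after 48 h, whereas the paper's methods describe stable lentiviral knockdown with puromycin selection. The shRNA used for these libraries was not named, and replicate numbers here are only those of the labels. All libraries come from 1 line, and no source used here states that replicates were separate cultures, so p-values measure the spread between these samples, which may be technical.

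A mature miRNA is a short RNA cut from a hairpin, and each hairpin has a 5p and a 3p arm. The seed near its 5′ end pairs with target mRNAs and lowers their translation or stability. miR-124 is one of the most abundant miRNAs of neurons and represses non-neuronal genes there, miR-9 acts in neural progenitors and neurons, and miR-128, miR-129, miR-138, miR-153 and miR-218 are enriched in neurons or in parts of the nervous system.

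The sequences of 7 of the 9 miRNAs are shown to compare their seeds, which set the mRNAs that each can pair with. They are the mature sequences of RefSeq on GRCh38.p14, written 5′ to 3′, with the seed (bases 2 to 8) in capitals. No sequence is printed for hsa-miR-124-3p and hsa-miR-124-5p.
hsa-miR-9-5p: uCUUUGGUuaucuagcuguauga
hsa-miR-9-3p: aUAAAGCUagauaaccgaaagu
hsa-miR-128-3p: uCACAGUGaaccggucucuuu
hsa-miR-129-5p: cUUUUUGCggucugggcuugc
hsa-miR-138-5p: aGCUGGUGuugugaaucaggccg
hsa-miR-153-3p: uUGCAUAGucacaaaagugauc
hsa-miR-218-5p: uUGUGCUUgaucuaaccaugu

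None of these 7 seeds was shared with another of the 7. Seeds were compared with those of the 1298 known miRNAs of the count table that had a sequence, of 1482, and not with predicted miRNAs. Among these, only the seed of hsa-miR-128-3p was shared, with hsa-miR-216a-3p, which had 1 count in circSOD2-sh replicate 2. The hairpins lie at several places of the genome. MIR9-1 is at chr1:156420341-156420429 on the minus strand in an intron of C1orf61, MIR9-2 at chr5:88666853-88666939 in an exon of LINC00461 and MIR9-3 at chr15:89368017-89368106 in an intron of MIR9-3HG (GRCh38, GENCODE release 29). MIR128-1 (chr2:135665397-135665478) lies in an intron of R3HDM1 and MIR128-2 (chr3:35744476-35744559) in an intron of ARPP21. MIR153-1 (chr2:219294111-219294200) lies in an intron of PTPRN, and MIR218-1 (chr4:20528275-20528384) and MIR218-2 (chr5:168768146-168768255) lie in introns of SLIT2 and SLIT3, which encode axon guidance ligands. MIR129-2 (chr11:43581394-43581483) lies in introns of long non-coding transcripts, and MIR138-1 (chr3:44114212-44114310) and MIR138-2 (chr16:56858518-56858601) have no annotated host. The mature miRNAs were all highest in circSOD2-sh replicate 2, whose values chose them. hsa-miR-9-5p, hsa-miR-9-3p, hsa-miR-128-3p, hsa-miR-138-5p and hsa-miR-218-5p each come from more than 1 of these hairpins. Their counts therefore do not show which of the loci they came from. For hsa-miR-129-5p and hsa-miR-153-3p only 1 hairpin each, MIR129-2 and MIR153-1, is placed here. Other hairpins may yield them too, so their counts do not show the locus either.

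Total counts per library were 6386872 to 9245044 in NC and 3743860 to 4208276 in circSOD2-sh. Counts on known miRNAs were 2344870 to 3573638 in NC and 3604691 to 4059249 in circSOD2-sh. Predicted miRNAs thus took the larger part of the counts in each NC library and a small part in each circSOD2-sh library. For replicate 1, known miRNAs held 3347100 of 9245044 counts in NC and 3776420 of 3972143 in circSOD2-sh. This difference in make-up follows the groups, so it cannot be told apart from the treatment, and its cause was not tested. Levels are given as normalized CPM, which are CPM against a library total adjusted by TMM, a scaling factor of edgeR estimated from the bulk of the miRNAs. A count of 0 allows up to 3 counts in a library, or 0.46 to 0.674 normalized CPM, and this floor covers counting error only. Beside the kidney label, 7 miRNAs of kidney tubule together reached 51950 to 61780 normalized CPM in the NC libraries against 51840 to 65310 with circSOD2-sh. miR-30a-5p supplied most of this sum, so the sum does not test the label. miR-192-5p, another tubule miRNA, was at 951.6 normalized CPM in NC replicate 4 and 334.4 to 360.5 in the other NC libraries. miR-204-5p, also of tubule, had 0 to 9 counts in the other 7 libraries and 164 in circSOD2-sh replicate 2.

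hsa-miR-124-3p showed the widest gap. Its counts were 7, 7, 5 and 8 in NC replicates 1 to 4, 11, 15 and 11 in circSOD2-sh replicates 1, 3 and 4, and 18220 in circSOD2-sh replicate 2. As normalized CPM this was 3214 in that library, against 2.28 ± 0.634 (SD, n = 3) in the other circSOD2-sh libraries and 1.20 ± 0.412 (SD, n = 4) in NC. circSOD2-sh replicate 2 thus stood 1069 times above the highest other library. Among known miRNAs hsa-miR-124-3p ranked 35 by counts there, and its median rank in the other circSOD2-sh libraries was 430. The partner arm hsa-miR-124-5p, the less abundant product of the hairpin, had 10 counts in circSOD2-sh replicate 2 and 0 in each of the 7 other libraries, which makes it at least 2.62-fold higher than their floor of 3 counts per library.

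Both arms of miR-9 followed. hsa-miR-9-5p had 197, 210, 194 and 157 counts in NC, 148, 151 and 159 in circSOD2-sh replicates 1, 3 and 4, and 4825 in replicate 2. Its normalized CPM was 851 in that library and between 25.1 and 35.3 in the other 7. hsa-miR-9-3p had 52, 55, 48 and 38 counts in NC, 30, 45 and 25 in the other circSOD2-sh libraries and 1399 in replicate 2. The 2 arms stood 24.1 and 27.3 times above the highest other library. The ratio of 5p to 3p counts was 3.45 in replicate 2 and 3.36 to 6.36 in the other libraries, so the balance of the arms lay within the range of the rest.

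hsa-miR-128-3p, the most abundant of the 9 in the other libraries, differed far less. It had 3137, 3351, 2984 and 2125 counts in NC, 2697, 2211 and 2458 in circSOD2-sh replicates 1, 3 and 4, and 5089 in replicate 2. That was 897.6 normalized CPM against 437 to 458 in the rest of the group, or 1.74 times the highest of the other 7 libraries. Its partner arm hsa-miR-128-1-5p did not stand out, with 125 counts in replicate 2 and 82 to 157 elsewhere. The ratio of 3p to 5p counts was accordingly 40.7 in replicate 2 and 19.1 to 29.98 in the other 7 libraries. hsa-miR-128-3p comes from MIR128-1 and MIR128-2, but hsa-miR-128-1-5p only from MIR128-1, and the 5p arm of MIR128-2 was not in the count table. This ratio therefore does not show the balance of the arms of either hairpin.

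hsa-miR-138-5p, which limits the size of dendritic spines in neurons, showed the smallest gap of the 9. Its counts were 106, 112, 113 and 93 in NC, 114, 96 and 89 in the other circSOD2-sh libraries and 178 in replicate 2. The level there was 31.4 normalized CPM, or 1.503 times the highest of the other 7. Its partner arm hsa-miR-138-1-3p had 23 counts in replicate 2, 12, 22 and 16 in the rest of the group and 2, 1, 1 and 3 in NC. This arm was thus higher in each circSOD2-sh library than in NC, and replicate 2 did not stand out for it. hsa-miR-138-2-3p had 4 counts in replicate 2 and 0 elsewhere.

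The remaining 3 lay between these extremes. hsa-miR-129-5p had 9, 10, 9 and 5 counts in NC, 20, 14 and 22 in circSOD2-sh replicates 1, 3 and 4, and 133 in replicate 2, or 6 times the highest other library after normalization. The partner arms of both miR-129 hairpins were nearly confined to that library, since hsa-miR-129-1-3p had 18 counts there and 0 elsewhere, and hsa-miR-129-2-3p had 51 counts there and 0 to 2 elsewhere. hsa-miR-153-3p had 73, 81, 87 and 68 counts in NC, 43, 55 and 76 in the other circSOD2-sh libraries and 407 in replicate 2, or 4.70 times the highest other library. Its partner arm hsa-miR-153-5p had 21 counts there and 5 to 15 elsewhere, and the ratio of 3p to 5p was 19.4 against 4.58 to 11.3. hsa-miR-218-5p, which is abundant in motor neurons, had 214, 203, 196 and 187 counts in NC, 157, 117 and 127 in the other circSOD2-sh libraries and 579 in replicate 2, or 2.43 times the highest other library.

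**Figure D1:**
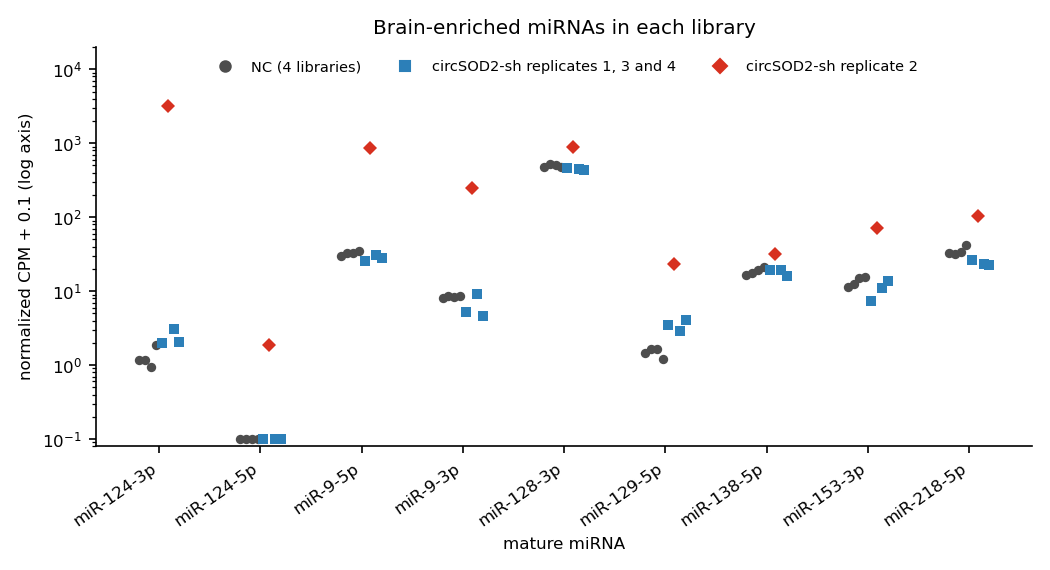
Normalized CPM plus 0.1 (log axis) of the 9 brain-enriched miRNAs (x axis) in each of the 8 libraries, 1 point per library. circSOD2-sh replicate 2 (red diamonds) is the highest point for each miRNA, from 1.503 times the next library for miR-138-5p to 1069 times for miR-124-3p.

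Thus each of the 9 was highest in circSOD2-sh replicate 2, and 7 of the 9 exceeded 2 times the highest other library there. This can be set beside 13.2% of the known miRNAs with at least 10 counts in that library (68 of 514), a share from which nothing is read for the 9, since the same values chose them. The widest gap was that of hsa-miR-124-3p, among the rarest of the 9 in the other libraries. hsa-miR-128-3p, the most abundant there, had a small one. The gap did not simply follow abundance, since hsa-miR-129-5p, also rare, had a ratio of 6 to the highest other library. hsa-miR-9-5p had 24.1, and the less abundant hsa-miR-138-5p had 1.503. Together the 9 took 0.733% of the counts of replicate 2 (30840 counts, Wilson 95% interval 0.725% to 0.741%, which covers counting error only and treats PCR reads as independent), 0.0722% to 0.0811% in the other circSOD2-sh libraries and 0.0411% to 0.0454% in NC. Their summed level was 5439 normalized CPM against 527 to 546.8 and 582 to 619.7. Without both arms of miR-124 the sum was still 2224 in replicate 2 and 525 to 618.6 in the others.

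The make-up of the sum differed as well. hsa-miR-128-3p supplied 79.3% to 83.8% of the counts of the 9 in the other 7 libraries and 16.5% in circSOD2-sh replicate 2. hsa-miR-124-3p supplied 0.138% to 0.555% in the others and 59.1% in replicate 2. Counts above the level of the other circSOD2-sh libraries came to 27786, or 0.66% of the counts of replicate 2. Of these, hsa-miR-124-3p held 65.5%, hsa-miR-9-5p 16.8%, hsa-miR-128-3p 9.21% and hsa-miR-9-3p 4.91%, so the miR-124 and miR-9 hairpins accounted for most.

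The group change depended on whether replicate 2 was included. With all 8 libraries the edgeR fit gave positive log2 fold changes of circSOD2-sh against NC for the 8 miRNAs that passed the filter on low counts. hsa-miR-124-5p did not pass it. The change was 9.40 ± 2.80 (SE) for hsa-miR-124-3p, 2.999 ± 1.24 for hsa-miR-9-3p, 2.84 ± 1.14 for hsa-miR-9-5p, 2.56 ± 0.756 for hsa-miR-129-5p and 0.95 ± 0.646 for hsa-miR-153-3p. The other 3 changes were 0.33 ± 0.47 for hsa-miR-218-5p, 0.22 ± 0.217 for hsa-miR-138-5p and 0.17 ± 0.223 for hsa-miR-128-3p. Of all 895 miRNAs in that fit, 33.3% were called higher and 32.4% lower at an adjusted p under 0.05, and hsa-miR-124-3p and hsa-miR-129-5p were among the former. That contrast contains the library that chose the 9, so these calls carry no weight for them.

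Without circSOD2-sh replicate 2, the changes were between -0.62 and 1.15, and with TMM scaling 6 of the 8 had the opposite sign. In this 7-library fit 31.3% of 969 miRNAs were called higher and 36.9% lower, and of the 8 tested here 2 were called higher and 3 lower. hsa-miR-129-5p rose by 1.15 ± 0.267 on the log2 scale (edgeR adjusted p = 0.0035), with 2.81 to 3.91 normalized CPM in circSOD2-sh and 1.12 to 1.54 in NC. It passed the low-count filter only through circSOD2-sh, where it is high, so its higher call is given as a description. Without that filter its edgeR adjusted p was 0.00942. hsa-miR-218-5p fell by 0.62 ± 0.153 with TMM (edgeR adjusted p = 0.00473) but was higher by 0.47 with library totals (edgeR adjusted p = 0.0183). Its levels were 22.6 to 26.7 normalized CPM in circSOD2-sh against 31.2 to 41.99 in NC. These 2 calls were kept in each of 7 fits that left out 1 more library. The call of hsa-miR-129-5p was also kept under the 10 other settings tried, whereas the lower call of hsa-miR-218-5p was lost under 5 of them. These were the fit of known miRNAs only (-0.36, edgeR adjusted p = 0.0938), library totals, upper-quartile scaling and both limma fits, and in the last 4 its change was positive. With so large a share of all miRNAs called, 5 of 8 is near the background of this fit.

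The other calls among the 9 were less steady. hsa-miR-124-3p had a change of 0.83 ± 0.333 (edgeR adjusted p = 0.0467), resting on 5 to 15 counts per library, and was called only when NC replicate 4 was left out among the 7 further fits (adjusted p from 0.0174 to 0.18). It too passed the low-count filter only through circSOD2-sh, and it was not called without that filter (edgeR adjusted p = 0.13). hsa-miR-9-5p fell by 0.34 ± 0.132 with TMM (edgeR adjusted p = 0.0431) but was higher by 0.75 with library totals (edgeR adjusted p = 0.000352). Its lower call was kept in 0 of those 7 fits, with adjusted p of 0.0566 to 0.294. hsa-miR-128-3p fell by 0.26 ± 0.0796 with TMM (edgeR adjusted p = 0.0157) but was higher by 0.83 with library totals (edgeR adjusted p = 4.76e-06). Its lower call was lost without NC replicate 2 or without circSOD2-sh replicate 1, 3 or 4 (adjusted p up to 0.118). Levels of hsa-miR-128-3p were 437 to 458 normalized CPM in the 3 circSOD2-sh libraries and 477 to 515 in NC, and those of hsa-miR-9-5p overlapped between the groups.

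hsa-miR-9-3p, hsa-miR-153-3p and hsa-miR-138-5p did not pass the threshold in the 7-library fit. Their changes were -0.54 ± 0.229, -0.44 ± 0.225 and -0.12 ± 0.157, with edgeR adjusted p-values of 0.0566, 0.104 and 0.503, and their levels overlapped between the groups. hsa-miR-9-3p was called lower without circSOD2-sh replicate 3 (-0.85, edgeR adjusted p = 0.00426), where it had its highest level of the 3, and hsa-miR-153-3p without replicate 4 (-0.63, edgeR adjusted p = 0.0482).

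**Figure D2:**
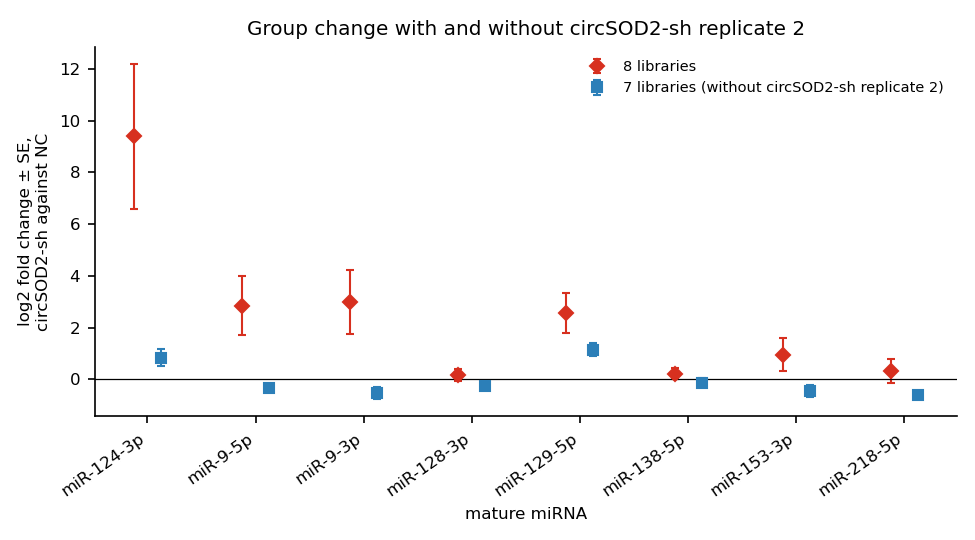
Log2 fold change of circSOD2-sh against NC with its SE (y axis) for the 8 brain-enriched miRNAs tested (x axis), from edgeR fits with all 8 libraries (red) and with 7 libraries, leaving out circSOD2-sh replicate 2 (blue). The value of miR-124-3p is 9.40 with that library and 0.83 without it, and with TMM scaling, which both fits use, 6 of the 8 values turn from above to below 0.

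These directions depended on the scaling of the libraries. The median log2 fold change of all 969 miRNAs was -0.15 with TMM and 0.94 when library totals were used, where all 8 changes in the 7-library fit were positive and called. Relative to that median the values hardly moved, which a change of scaling gives by itself, since it shifts all miRNAs nearly alike. hsa-miR-129-5p lay 1.29 above it under both scalings and hsa-miR-124-3p 0.98 above it with TMM and 0.97 with library totals. hsa-miR-218-5p lay below it by -0.48 and -0.47, and hsa-miR-138-5p lay 0.02 and 0.03 above it. In the 7-library fit of known miRNAs only, the distance from the median of that fit was 1.45 for hsa-miR-129-5p and 1.13 for hsa-miR-124-3p. There it was -0.33 for hsa-miR-218-5p and 0.18 for hsa-miR-138-5p. The gap of replicate 2 was kept under 4 other scalings, where its ratio to the highest other library was 1014 to 1081 for hsa-miR-124-3p, 22.7 to 28.3 for hsa-miR-9-5p and 1.41 to 1.495 for hsa-miR-138-5p.

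The 9 were not alone in their pattern. Among 431 other miRNAs with at least 50 counts in circSOD2-sh replicate 2, of which 108 were predicted, 40 exceeded 2 times the highest other library, and 0 of these were predicted. The 10 with the highest ratio are named here, and 6 of them were in a list of other brain-enriched miRNAs and 2 in a list of the DLK1-DIO3 cluster, an imprinted cluster on chromosome 14 that is active in brain and placenta. The sequences of 3 of the 10, and of hsa-miR-219a-5p as the other arm of hsa-miR-219a-2-3p, are shown from RefSeq on GRCh38.p14 as examples known from oligodendrocytes or from the HTR2C locus, with the seed in capitals.
hsa-miR-338-3p: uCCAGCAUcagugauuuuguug
hsa-miR-219a-5p: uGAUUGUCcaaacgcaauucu
hsa-miR-219a-2-3p: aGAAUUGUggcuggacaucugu
hsa-miR-1298-5p: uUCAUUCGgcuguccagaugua

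hsa-miR-127-3p and hsa-miR-136-3p of the DLK1-DIO3 cluster led. hsa-miR-127-3p (MIR127, chr14:100882979-100883075) had 5296 counts in circSOD2-sh replicate 2 and 1 to 35 in the other 7 libraries, and hsa-miR-136-3p (MIR136, chr14:100884702-100884783) had 797 and 0 to 4. hsa-miR-338-3p and hsa-miR-338-5p, from a hairpin in an intron of AATK (chr17:81125883-81125949), had 248 and 150 counts there and at most 5 elsewhere. hsa-miR-338 and hsa-miR-219a promote the maturation of oligodendrocytes, the myelin-forming cells of the brain. hsa-miR-219a-2-3p had 112 counts in replicate 2 and 1 count in all other libraries together, and hsa-miR-219a-5p, which the ratio did not place among the 10 and which is given as the other arm, had 94 and 1 to 8.

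hsa-miR-1298-5p (MIR1298, chrX:114715233-114715344) and hsa-miR-1264 come from introns of HTR2C, which encodes a serotonin receptor. They had 203 and 96 counts in replicate 2, and at most 4 and 0 elsewhere. hsa-miR-488-3p, from an intron of the neuronal gene ASTN1 (chr1:177029363-177029445), had 107 counts there and 0 in each of the other 7 libraries, and hsa-miR-384 had 172 and 0 to 1. Against the floor of 3 counts per library hsa-miR-488-3p was at least 28.0-fold and hsa-miR-1264 at least 25.1-fold higher. hsa-miR-34c-5p, a p53 target best known from testis and ciliated cells, had 543 counts there and 2 to 8 elsewhere.

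**Figure D3:**
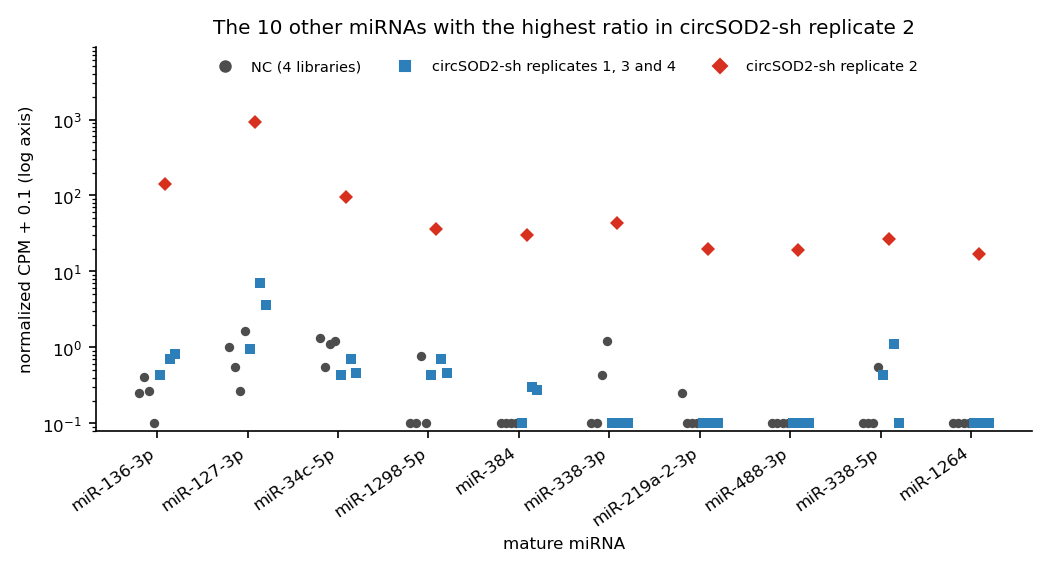
Normalized CPM plus 0.1 (log axis) of the 10 other miRNAs with the highest ratio in circSOD2-sh replicate 2 (x axis), 1 point per library. The 7 other libraries lie at or below 7.02 normalized CPM for each, and replicate 2 (red diamonds) lies between 16.9 and 934.1.

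The same count was made for each library in turn, to see whether any library would stand out in this way. circSOD2-sh replicate 2 had 68 known miRNAs over 2 times the highest of the other 7, 37 over 5 times and 26 over 10 times. NC replicate 4 had 18 of 423 over 2 times, NC replicate 1 had 1, and the other 5 libraries had 0. No known miRNA was under 0.5 times the lowest other library in replicate 2, of 371 that could be judged. Of known miRNAs in none of the lists used here, 20 of 414 exceeded 2 times in replicate 2 and 6 of 362 in NC replicate 4. Without NC replicate 4 the count in replicate 2 was 75.

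**Figure D4:**
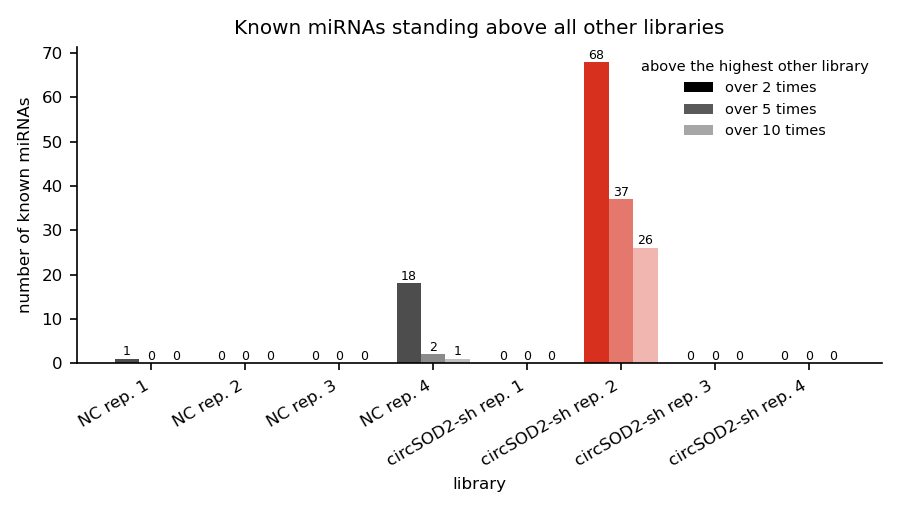
Number of known miRNAs (y axis) in each library (x axis) with at least 10 counts there and a level over 2, 5 and 10 times the highest of the other 7 libraries. circSOD2-sh replicate 2 holds 68, 37 and 26, NC replicate 4 holds 18, 2 and 1, and the other 6 libraries hold at most 1.

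The lists of other cell types show which other miRNAs moved with this library. The DLK1-DIO3 list (49 of 51 in the table) summed to 1698 normalized CPM in circSOD2-sh replicate 2, 210 to 248 in the rest of the group and 194 to 204.8 in NC. Of its 37 miRNAs with at least 10 counts there, 22 exceeded 2 times the highest other library. miR-127-3p alone was at 934.1 normalized CPM in replicate 2. The most abundant of the list in NC, miR-494-3p, miR-654-3p, miR-758-3p and miR-889-3p, had 0.991, 0.695, 0.844 and 0.848 times the highest other library. The list of other brain-enriched miRNAs (31 of 34) summed to 1078 against 716 to 724.9 and 835 to 913.7, and 15 of 22 exceeded 2 times. Its abundant miRNAs did not differ in this way, since miR-769-5p, miR-149-5p and miR-137 had 0.666, 1.06 and 1.41 times the highest other library.

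Lists of blood, vessel and stromal cells were raised in replicate 2 against its own group, but not above NC replicate 4. The stromal and endothelial list summed to 813.6 normalized CPM in replicate 2, 286 to 316.5 in the other circSOD2-sh libraries, 349 to 363 in NC replicates 1 to 3 and 1387 in NC replicate 4. miR-143-3p, a miRNA of smooth muscle and fibroblasts, had 1144 counts in replicate 2, 38 to 59 in the rest of the group and 2206 in NC replicate 4. The erythroid list summed to 59.8 against 21.6 to 31.3 in the group and 170.7 in NC replicate 4, and the leukocyte list to 14.6 against 2.13 to 3.21 and 17.1. Within the leukocyte list miR-150-5p had 36 counts in replicate 2 and 0 to 2 elsewhere, miR-142-5p had 46 against 71 in NC replicate 4, and miR-223-3p had 0 in replicate 2. The part of such other RNA in the levels of the 9 was not tested, and fewer or more cells of a type cannot be told apart from a changed level per cell in these bulk libraries.

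NC replicate 4, which stood highest for those blood and stromal lists, did not stand out for the sum of the 9. This was 602 normalized CPM there and 582 to 619.7 in the other NC libraries, and hsa-miR-128-3p supplied most of it. Within NC, replicate 4 was highest for hsa-miR-218-5p (41.99 against 31.2 to 33.4) and hsa-miR-124-3p (1.80 against 0.852 to 1.08). By smaller margins it was highest for hsa-miR-9-5p, hsa-miR-9-3p, hsa-miR-138-5p and hsa-miR-153-3p. It was lowest for hsa-miR-128-3p and hsa-miR-129-5p. The other arms of the 9 miRNAs' hairpins (6 of 11 in the table) summed to 42.7 normalized CPM in replicate 2 and 19.0 to 27.1 in the other 7 libraries. For the remaining lists replicate 2 lay within the range of the other 7. Muscle miRNAs summed to 26.1 normalized CPM in replicate 2 and 10.9 to 49.9 elsewhere, miR-122-5p of liver to 2.29 and 1.36 to 5.82, miR-375 of islets to 2.12 and 0.341 to 7.41, and retina and sensory miRNAs to 8099 and 6476 to 11140. miR-210-3p, induced by hypoxia signalling, was at 19.8 in replicate 2 and 13.9 to 27.0 elsewhere.

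**Figure D5:**
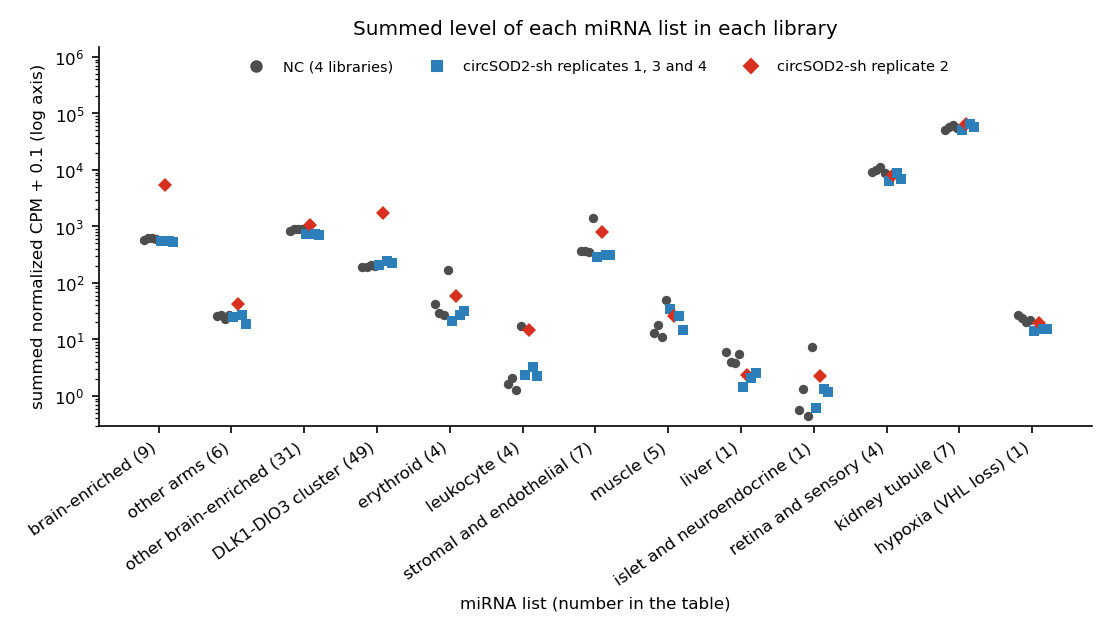
Summed normalized CPM plus 0.1 (log axis) of each miRNA list (x axis, with the number of its miRNAs in the table) in each of the 8 libraries, 1 point per library. circSOD2-sh replicate 2 (red diamonds) stands apart from the other 7 for the 9 brain-enriched miRNAs (5439) and the DLK1-DIO3 cluster (1698), and NC replicate 4 is the highest point for the erythroid, leukocyte, stromal, muscle and islet lists.

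In the 7-library fit, which did not use replicate 2, the related lists gave mixed calls, to be read beside 31.3% of all 969 miRNAs called higher and 36.9% lower. Of the other brain-enriched miRNAs 9 were tested, of which 2 were called higher and 1 lower, with a median log2 fold change of 0.08. Of the DLK1-DIO3 list 22 were tested, of which 4 were called higher and 3 lower, with a median of -0.12. Of the other arms of the hairpins 3 were tested and 1 was called higher, with a median of -0.39. That arm, miR-138-1-3p, had 1 to 3 counts in NC. Among the higher calls of the DLK1-DIO3 list, miR-329-3p, miR-380-3p and miR-409-5p had 0 to 2, 0 to 6 and 9 to 18. These miRNAs passed the low-count filter only through circSOD2-sh, where they are high, so their higher calls are given as a description. The 8 miRNAs described here had a median of -0.30, beside -0.15 over all miRNAs tested. The filter on low counts in those 7 libraries left 3 of the 6 other arms, 9 of the 31 other brain-enriched miRNAs and 22 of the 49 of the DLK1-DIO3 list to test.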

How the data were processed

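Small RNA libraries of 4 NC and 4 circSOD2-sh samples were analysed. The authors deposited counts of reads per mature miRNA without normalization, and CPM scaled by the authors to a library total larger than the sum of the listed counts. Per the labels, the processing notes name FastQC 0.11.2, Trimmomatic 0.36, Bowtie 1.1.1 and GRCh38, with no role or order. The counting tool and the miRNA annotation are not given in the sources used here. A deposited table of the authors' comparison (group mean CPM, log2 ratios, p-values, q-values and calls) was not used.

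The counts entered edgeR 4.0.16 under R 4.3.3 (filterByExpr minimum count 10, TMM, quasi-likelihood test, prior count 0.125, Benjamini-Hochberg over all miRNAs tested). The SE was taken as the log2 fold change divided by the square root of its F statistic. The fit was made with all 8 libraries and without circSOD2-sh replicate 2. Normalized CPM are CPM against the TMM-adjusted library total over all 8 libraries. Ratios of replicate 2 used the highest of the other 7 libraries, each raised to a floor of 3 counts. Known miRNAs are those without the authors' number for predicted ones. Alternatives were DESeq2 1.42.0, scaling by library totals, RLE or the upper quartile, no low-count filter, a prior count of 2, a fit to known miRNAs, limma 3.58.1 on deposited CPM (log2, pseudocount 1 or 0.1), a block for the replicate number, and a fit without each library in turn. Ratios without NC replicate 4 were added after the data were seen. Tables and figures were made with Python 3.11.15, pandas 2.3.3, scipy 1.17.1 and matplotlib 3.10.9.

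The 9 miRNAs and the 13 lists were chosen with earlier results of these data known. Named by rule were the 9, the most abundant miRNAs of a list, and the 10 others with at least 50 counts in replicate 2 and the highest ratio there. miR-143-3p, miR-150-5p, miR-142-5p, miR-223-3p, miR-204-5p and miR-219a-5p were named after their values were seen. Each fit was tested on simulated data with miRNAs changed by 2 on the log2 scale. edgeR recovered 100% of 191 changed miRNAs in the simulation of 8 libraries, where 913 were run and 4.98% of calls were false. In the simulation of 7 libraries it recovered 99.5% of 193, where 1019 were run and 4.48% of calls were false. The simulated libraries shared a pooled make-up and a common spread, with no library set apart. These rates therefore do not cover the difference in make-up between the groups or a library like circSOD2-sh replicate 2. Libraries of a group differed by more than sampling noise in each pair (chi-square per degree of freedom at least 11.4).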

Additional observations from a re-analysis of the deposited data

Results flagged for a closer look

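In 17 of 44 groups of 4 libraries, 1 library lay so far from the other 3 that its gap to the nearest of them passed Dixon's 95% critical value. Chance gives this in about 1 group in 20 where groups are not chosen on their values. The 9 miRNAs were chosen on circSOD2-sh replicate 2, and the 13 lists with earlier results of these data known. That rate therefore holds for neither, so the count is a description and no test is read from it. In 13 of the 17 the library apart was circSOD2-sh replicate 2, and in 4 it was NC replicate 4. All values are normalized CPM.

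Of the 9 brain-enriched miRNAs, 8 stood apart in circSOD2-sh replicate 2 by this measure and miR-138-5p did not, which describes the values that chose them. miR-124-3p was at 3214 there and at 1.87 to 3.01 in the other 3 libraries of its group, and miR-124-5p was at 1.76 and 0. miR-9-5p was at 851 against 25.1 to 30.3, and miR-9-3p at 246.8 against 4.44 to 9.02. miR-128-3p was at 897.6 against 437 to 458. miR-129-5p was at 23.5 against 2.81 to 3.91, miR-153-3p at 71.8 against 7.30 to 13.5 and miR-218-5p at 102.1 against 22.6 to 26.7.

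Sums of lists stood apart in the same library for the 9 together (5439 against 527 to 546.8), other brain-enriched miRNAs (1078 against 716 to 724.9), the DLK1-DIO3 cluster (1698 against 210 to 248), leukocyte miRNAs (14.6 against 2.13 to 3.21) and stromal and endothelial miRNAs (813.6 against 286 to 316.5). In NC replicate 4 the sums apart were erythroid (170.7 against 26.8 to 42.6), leukocyte (17.1 against 1.19 to 2), stromal and endothelial (1387 against 349 to 363) and islet miRNAs (7.41 against 0.341 to 1.23). The cause of either was not tested.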

How the results depend on the processing

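The number of miRNAs called was 588 with 8 libraries and 661 with 7, and stayed within 1.5 times of these except with known miRNAs only, where 246 and 235 were called and fewer were tested. The split of higher and lower calls with 7 libraries was 303 and 358 with TMM, 652 and 160 with library totals, and 631 and 166 with upper-quartile scaling. Of the 8 brain-enriched miRNAs tested, 2 were called higher and 3 lower in the 7-library fit. The number called higher was 1 with DESeq2, without the low-count filter and with the replicate block, 5 with limma on CPM plus 1 or plus 0.1, 7 with upper-quartile scaling and 8 with library totals. The number called lower was 1 without the low-count filter and 0 with known miRNAs only, library totals, upper-quartile scaling and both limma fits. Leaving out 1 more library gave 1 to 2 higher and 1 to 2 lower, and 577 to 659 calls in all.

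Signs of the 7-library log2 fold change turned as follows, for library totals, upper-quartile scaling, limma on CPM plus 1 and limma on CPM plus 0.1 in this order. miR-9-5p was at 0.752, 0.701, 0.588 and 0.607. miR-9-3p was at 0.541, 0.497, 0.307 and 0.344. miR-128-3p was at 0.834, 0.774, 0.689 and 0.69, and at 0.0149 with known miRNAs only. miR-138-5p was at 0.966, 0.912, 0.773 and 0.816, and at 0.148 with known miRNAs only. miR-153-3p was at 0.641, 0.591, 0.429 and 0.464. miR-218-5p was at 0.468, 0.413, 0.311 and 0.322. The cause was not tested.

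With 8 libraries, leaving out 1 gave 537 to 661 calls. The log2 fold change then ranged from -0.337 to 3.07 for miR-9-5p, -0.543 to 3.24 for miR-9-3p, -0.257 to 0.151 for miR-128-3p, -0.124 to 0.245 for miR-138-5p, -0.443 to 1.12 for miR-153-3p, -0.624 to 0.415 for miR-218-5p and 0.833 to 9.67 for miR-124-3p, and the lowest value of each came without circSOD2-sh replicate 2. DESeq2 gave no adjusted p for miR-124-3p, miR-9-5p, miR-9-3p and miR-129-5p in that fit. Samples of the same replicate number deviated from their group means with correlations of 0.26, -0.0994, 0.0965 and -0.174, so the numbers do not pair the samples. With the replicate block 574 miRNAs were called with 8 libraries and 594 with 7, and miR-218-5p was at -0.0173 with 8 libraries. With 7 libraries and the block, miR-124-3p (adjusted p = 0.16 in edgeR) and miR-9-5p (adjusted p = 0.0619 in edgeR) were no longer called. In libraries where hsa-miR-124-3p had 5 to 15 counts, depth limits the precision of its group change.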
